A study of Mus musculus with 6 samples.

Results

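The 7 Sox genes Sox4, Sox5, Sox6, Sox8, Sox9, Sox11 and Sox12 were followed through every probe set that the array annotation assigns to one of them, which gave 7 of 18193 genes and 32 of the 45101 probe sets on the array. They comprised 17 probe sets of the SoxC genes (8 of Sox4, 6 of Sox11 and 3 of Sox12), 11 of the SoxD genes (7 of Sox5 and 4 of Sox6) and 4 of the SoxE genes (1 of Sox8 and 3 of Sox9). RNA came from primary chondrocytes of the rib cartilage of newborn mice, of 2 genotypes, Slc39a13-KO and wild type, with 3 arrays each and 1 RNA per array. Slc39a13 encodes the zinc transporter ZIP13, and the knockout, made in embryonic stem cells, replaced several exons by a neomycin resistance cassette in all cells of the animal, so it was not restricted to cartilage. The cells were released with collagenase and cultured with no sorting step, the strain was not given in the labels, and no treatment was applied to either genotype. The labels do not say whether the replicates came from separate animals or cultures, so each p-value reflects array-to-array spread that may be technical alone.

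Sox proteins bind DNA through a high mobility group box that they share with the sex-determining factor Sry, and bend it at a short site with the core ACAAT. Sox9, of the SoxE group, is required for mesenchymal cells to become chondrocytes and activates the genes of the cartilage matrix, while Sox5 and Sox6, of the SoxD group, have no activation domain of their own, bind as dimers through a coiled coil and help Sox9 on the enhancers of those genes. The SoxC factors Sox4, Sox11 and Sox12 have an activation domain and are best known in skeletal tissue for progenitor cells of the perichondrium, the limb bud and the joints.

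The region before the transcription start is shown for Sox4 and Sox5, the genes with the lowest adjusted p among the probe sets that fell and those that rose in Slc39a13-KO chondrocytes. These 250 bases are from RefSeq on build GRCm38.p6, written 5′ to 3′ along the gene and ending at the base before the annotated start. Capitals mark each CCAAT box (CCAAT, or ATTGG on the other strand) and each Sox core (ACAAT, or ATTGT on the other strand). Sox4 lies on the minus strand, with this stretch at chr13:28953700-28953949, and Sox5 on the minus strand, at chr6:143947107-143947356.
Sox4: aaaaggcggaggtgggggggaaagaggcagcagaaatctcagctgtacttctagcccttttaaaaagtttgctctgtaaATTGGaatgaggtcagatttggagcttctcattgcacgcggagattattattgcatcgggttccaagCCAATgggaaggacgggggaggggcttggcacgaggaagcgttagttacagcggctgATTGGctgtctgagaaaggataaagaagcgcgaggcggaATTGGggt
Sox5: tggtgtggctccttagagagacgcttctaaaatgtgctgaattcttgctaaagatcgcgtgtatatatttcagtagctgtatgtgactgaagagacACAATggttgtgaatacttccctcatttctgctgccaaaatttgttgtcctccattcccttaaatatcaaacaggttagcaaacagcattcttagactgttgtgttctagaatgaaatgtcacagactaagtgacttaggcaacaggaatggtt
The Sox4 stretch held 4 CCAAT boxes and 0 Sox cores. A window of 300 bases (the 250 shown and 50 after the start) held at least 1 CCAAT box in 37.4% of 32851 RefSeq windows and at least 4 in 1.06%. The Sox5 stretch held 1 Sox core and 0 CCAAT boxes, and a Sox core was present in 31.0% of the windows. CpG dinucleotides numbered 12 in the Sox4 window and 3 in that of Sox5, against a median of 7 over all windows. RefSeq windows were matched for 6 of the 7 genes, and the windows of Sox11 and Sox12 held 1 CCAAT box each and 0 Sox cores, while that of Sox8 held 0 of either. Sox6 had 6 windows, of which 1 held 4 CCAAT boxes, as many as that of Sox4, and 3 held 2 to 3 Sox cores, more than that of Sox5. A match describes the letters only, since binding was not measured here.

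Values are MAS5 signals, the linear brightness of a probe set in arbitrary units after each array was scaled to a trimmed mean of 500 (the lowest and highest 2% left out). They say nothing of one probe set's level relative to another's, and only differences between the genotypes were compared. Differences are given on the scale of log2(signal + 7.96), Slc39a13-KO minus wild type, which understates the change of dim probe sets, and were tested with limma over 23309 probe sets with 1 gene symbol and a mean log2 value of at least 5.80 (a signal of 47.8). Of these, 802 were higher in Slc39a13-KO cells (3.44%) and 784 lower (3.36%) at a Benjamini-Hochberg adjusted p under 0.05. When each array was centred on its median, the counts were 131 higher and 260 lower. The targeted gene separated the genotypes: Slc39a13 had signals of 100, 196 and 165 in Slc39a13-KO chondrocytes, against 901, 1081 and 991 in wild type (log2 difference −2.67, SE 0.22, limma adjusted p = 0.000533). Where its probe set lies relative to the deleted exons was not determined. Slc39a13-KO replicate 1 stood apart, with a median signal of 108 against 80.7 to 88.4 on the other 5 arrays, and it correlated at 0.929 to 0.933 with them, while they correlated at 0.949 to 0.966 with each other.

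The chondrocyte markers checked (Col2a1, Acan, Col9a1, Hapln1, Matn1, Cnmd, Comp and Sox9) were all above the filter. Their summed signals were 136960 to 193300 on the Slc39a13-KO arrays and 93539 to 116470 on the wild-type arrays. Of these 8, Acan, Comp and Col9a1 were called higher in Slc39a13-KO cells and 0 lower. Col2a1 and Cnmd, the largest signals in these sums, were not called (limma adjusted p = 0.0981 and 0.0572). Nor were Hapln1 (log2 difference 0.13), Sox9 (0.04) and Matn1 (−0.40). Mesothelial markers differed most between the genotypes: 10 of the 11 tested, of 12 in the list, were lower in Slc39a13-KO cells (Krt19 by a log2 difference of −3.60), with sums of 784 to 1370 against 5448 to 9092 in wild type. Of 11 tested fibroblast and perichondrium markers 5 were higher and 2 lower, with sums of 79160 to 100770 in Slc39a13-KO and 58010 to 69747 in wild type, and of 3 tested osteoblast markers 2 were higher. None of 4 macrophage, 2 endothelial and 6 neural or Schwann cell markers tested passed the test (Lyz2 differed by 1.05, and Mbp, at −0.91, and Cd68, at −0.55, had all Slc39a13-KO arrays below all wild-type arrays). Of 7 tested muscle markers 1 was higher (Tnnt3, 1.17) and 1 lower (Acta1, −0.72), with a median log2 difference of −0.63 over the list. The part of these differences in cell makeup in the Sox values was not tested, and in RNA of whole cultures fewer cells of a type and less RNA per cell cannot be told apart.

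Of the 32 Sox probe sets, 24 passed the filter and 8 did not. Among the 24, 3 were higher in Slc39a13-KO chondrocytes (12.5%, against 3.44% of all tested probe sets), 2 were lower (8.33%, against 3.36%) and 19 did not pass the test. The 5 that changed belonged to Sox4 (both lower), Sox11 (both higher) and Sox5 (higher). Several probe sets stand for 1 gene, so they are not independent observations of the Sox family. The genes were also chosen with earlier results of these data known, so these shares are a description. The 3 arrays of each genotype did not overlap for 4 probe sets that were higher (16.7%) and 3 that were lower (12.5%), shares close to the 15.1% and 13.7% of all tested probe sets. At an unadjusted p under 0.05, 4 were higher and 4 lower, where 11.6% and 11.0% of all tested probe sets were. The median absolute log2 difference was 0.26 over the Sox probe sets and 0.22 over all tested ones, and 0 of the 24 differed by 2-fold or more. None of the 5 calls held in limma without a trend of the variance on the level, which called 47 probe sets higher and 61 lower over the whole array.

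Sox4, which in the skeleton is known for osteoblast development and for the survival of progenitor cells together with Sox11, was lower in Slc39a13-KO chondrocytes by 2 of its 6 tested probe sets. Probe set 1419156_at had signals of 1024, 982 and 1073 in Slc39a13-KO cells, against 1486, 1538 and 1510 in wild type. All Slc39a13-KO arrays lay below all wild-type arrays, with means of 1026 ± 45.5 and 1511 ± 26.3 (SD, n = 3 each), a fold of 0.680 (log2 difference −0.56, SE 0.08, limma adjusted p = 0.00629). Probe set 1419155_a_at behaved alike, with 1546, 1288 and 1315 in Slc39a13-KO cells against 1894, 2006 and 2151 in wild type. The genotypes were again apart, at a fold of 0.685 (log2 difference −0.54, SE 0.10, limma adjusted p = 0.0117). Both probe sets were designed on the same database record, as were 1419157_at and 1449370_at, so they are not independent measurements of the transcript.

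The other 4 tested Sox4 probe sets did not pass the test. The signals of 1433575_at were 10008, 11188 and 8694 in Slc39a13-KO cells, against 10051, 10408 and 10976 in wild type. Here the genotypes overlapped, with a log2 difference of −0.08 (SE 0.10, limma adjusted p = 0.681). Probe set 1419157_at had 1320, 1389 and 1334 in Slc39a13-KO cells and 1335, 1552 and 1821 in wild type (−0.21, SE 0.11), with Slc39a13-KO replicate 2 above the lowest wild-type array. Probe set 1449370_at had 671, 551 and 430 in Slc39a13-KO cells and 651, 714 and 722 in wild type (−0.35, SE 0.16), and 1455867_at had 151, 138 and 90.4 against 146, 175 and 163 (−0.36, SE 0.25). In each of these the arrays overlapped through 1 or more Slc39a13-KO arrays. All 6 tested differences were negative, with a median of −0.36. The call for 1419156_at was kept when any 1 array was left out, but both calls were lost with median centring, although the differences were larger there (−0.65 for 1419156_at, limma adjusted p = 0.0735, and −0.64 for 1419155_a_at, limma adjusted p = 0.0548), and that of 1419155_a_at also without wild-type replicate 2 (0.0656) or 3 (0.0636). Over all alternatives the adjusted p ranged from 0.00485 to 0.0735 for 1419156_at and from 0.00476 to 0.115 for 1419155_a_at.

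Sox11, which acts beside Sox4 in progenitor cells and neurons, gave probe sets that moved in opposite directions. Probe set 1453125_at had signals of 336, 341 and 324 in Slc39a13-KO chondrocytes, against 177, 220 and 223 in wild type. The genotypes did not overlap, and the signal rose 1.60-fold (log2 difference 0.68, SE 0.16, limma adjusted p = 0.0359). Probe set 1436790_a_at rose 1.58-fold, with 443, 492 and 451 in Slc39a13-KO cells against 261, 364 and 255 in wild type (0.66, SE 0.16, limma adjusted p = 0.0417). For 1431225_at the order was the other way, with 437, 364 and 373 in Slc39a13-KO cells against 471, 528 and 567 in wild type. Its arrays did not overlap either, but the difference of −0.41 (SE 0.13) did not pass the test (limma adjusted p = 0.101).

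The other 3 Sox11 probe sets overlapped between the genotypes. Probe set 1429372_at, designed on the same record as 1453125_at, had 85.9, 181 and 209 in Slc39a13-KO cells and 191, 232 and 192 in wild type (−0.44, SE 0.31, limma adjusted p = 0.437), the lowest value being that of Slc39a13-KO replicate 1. Probe set 1453002_at had 178, 130 and 176 in Slc39a13-KO cells and 169, 84.8 and 111 in wild type (0.43, SE 0.29), and 1429051_s_at, from the same record as 1453002_at, averaged 214 ± 48.3 and 213 ± 36.0 (SD, n = 3 each). Over the gene, 3 probe sets had positive and 3 negative differences. Both calls were unstable: that of 1453125_at was lost without each of the 6 arrays in turn (limma adjusted p = 0.0501 to 0.133, against 0.0283 to 0.207 over all alternatives), and that of 1436790_a_at without each but wild-type replicate 2 (0.0528 to 0.150, against 0.0340 to 0.236). With the replicate number as a block both were lost as well (0.0815 and 0.0638).

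Sox12, the third SoxC gene, whose protein is the weakest activator of the group, had 1 tested probe set. Probe set 1455562_at had signals of 383, 271 and 307 in Slc39a13-KO chondrocytes and 325, 311 and 314 in wild type, with a log2 difference of 0.00 (SE 0.16, limma adjusted p = 0.996). The Slc39a13-KO arrays lay on both sides of the wild-type arrays. Of those under the filter, 1439754_at had 13.8, 66.2 and 18.8 in Slc39a13-KO cells and 63.0, 86.9 and 72.1 in wild type, overlapping through Slc39a13-KO replicate 2, and 1456882_at was at 13.9 or less on all 6 arrays.

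**Figure D1:**
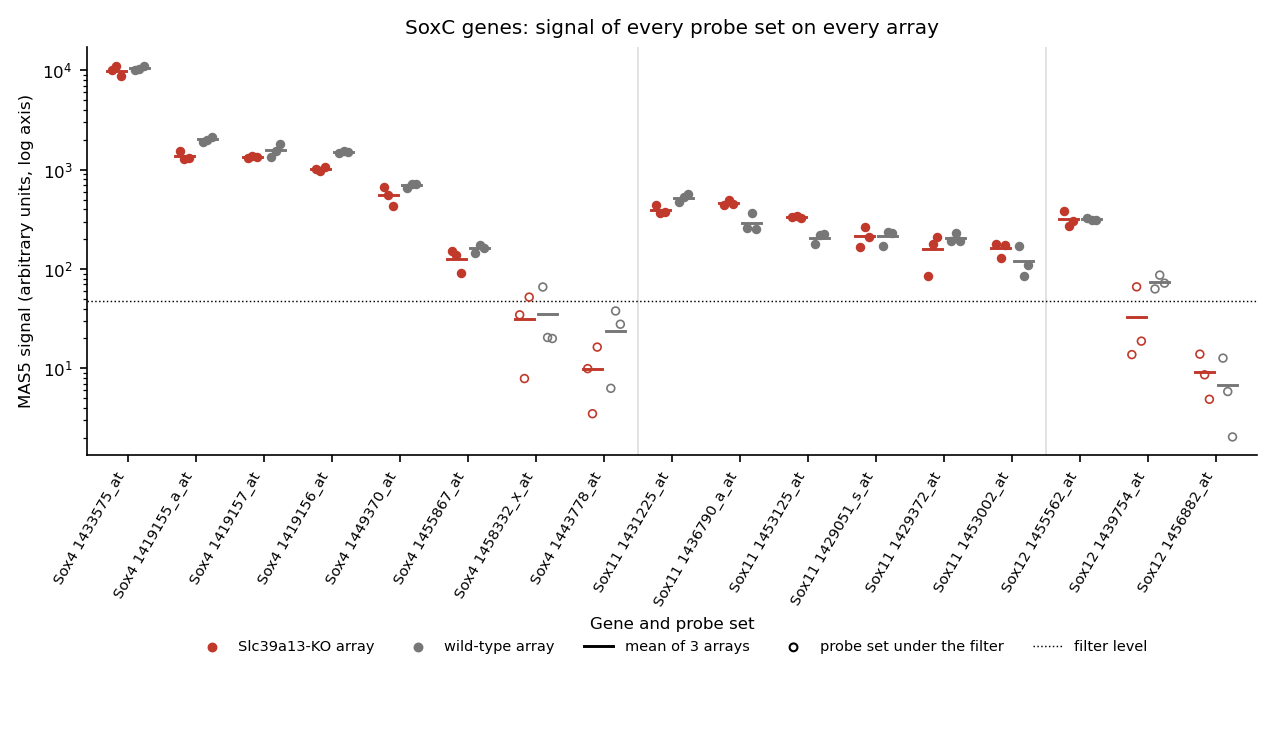
MAS5 signal (arbitrary units, log axis) of each of the 17 probe sets of Sox4, Sox11 and Sox12 on each array, with Slc39a13-KO to the left of wild type, the mean of 3 arrays as a bar and probe sets under the filter as open circles. The arrays of Sox4 1419155_a_at and 1419156_at lie lower in Slc39a13-KO, those of Sox11 1436790_a_at and 1453125_at higher, and those of Sox4 1433575_at overlap.

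Sox5, which works with Sox6 in the proliferating chondrocytes of the growth plate, was higher in Slc39a13-KO chondrocytes by 1 of its 5 tested probe sets. Probe set 1432189_a_at had signals of 905, 710 and 694 in Slc39a13-KO cells, against 435, 428 and 456 in wild type. Every Slc39a13-KO array was above every wild-type array, with means of 769 ± 117 and 440 ± 14.6 (SD, n = 3 each), a 1.72-fold rise (log2 difference 0.79, SE 0.13, limma adjusted p = 0.00817). Probe set 1432190_at, designed on the same record, was under the filter and its arrays overlapped. Probe set 1423500_a_at had 658, 509 and 564 in Slc39a13-KO cells against 446, 477 and 432 in wild type. Its arrays did not overlap, but the difference of 0.34 (SE 0.13) did not pass the test (limma adjusted p = 0.152).

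The remaining tested Sox5 probe sets overlapped between the genotypes. Probe set 1455535_at had 391, 417 and 417 in Slc39a13-KO cells and 393, 506 and 422 in wild type (−0.10, SE 0.14), and 1440827_x_at had 212, 240 and 387 against 315, 328 and 286 (−0.19, SE 0.22). Probe set 1452511_at had 116, 95.1 and 70.8 in Slc39a13-KO cells and 64.4, 75.3 and 86.0 in wild type (0.28, SE 0.32). Their limma adjusted p-values were 0.653 to 0.715. The call for 1432189_a_at was kept without each array in turn, but was lost with median centring (log2 difference 0.69, limma adjusted p = 0.0517, against 0.00566 to 0.306 over all alternatives). The mean of the log2 values of the 5 tested probe sets differed by 0.22 (limma adjusted p = 0.306).

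Sox6, the SoxD partner of Sox5, had 4 probe sets, all tested, and none passed the test. Probe set 1427677_a_at had signals of 1602, 1127 and 1540 in Slc39a13-KO chondrocytes and 1228, 1169 and 1307 in wild type (log2 difference 0.19, SE 0.13). Probe set 1447655_x_at had 1342, 1110 and 1273 in Slc39a13-KO cells and 1130, 1062 and 1019 in wild type (0.21, SE 0.10), where Slc39a13-KO replicate 2 lay below the highest wild-type array. The other 2, 1434918_at and 1426018_a_at, had differences of 0.02 (SE 0.13) and −0.02 (SE 0.16). All 4 overlapped, with limma adjusted p-values of 0.254 to 0.961.

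Sox9, the SoxE gene on which the chondrocyte lineage depends, did not pass the test by either tested probe set, which were designed on 1 shared record. Probe set 1451538_at had signals of 1653, 1330 and 1415 in Slc39a13-KO chondrocytes and 1273, 1552 and 1434 in wild type, which overlapped (log2 difference 0.04, SE 0.11, limma adjusted p = 0.849). Probe set 1424950_at had 1774, 1475 and 1360 in Slc39a13-KO cells and 1255, 1231 and 1392 in wild type. Slc39a13-KO replicate 3 lay below wild-type replicate 3, and the difference of 0.24 (SE 0.11) did not pass the test (limma adjusted p = 0.240).

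The third Sox9 probe set, 1433889_at, ranked at the 39.9th percentile of mean level, just under the filter at the 40th. It had 168, 80.8 and 56.7 in Slc39a13-KO cells and 56.6, 13.0 and 13.1 in wild type, so the genotypes were separated by 56.7 against 56.6. In a fit of all 34945 probe sets its difference was 1.72 (SE 0.60, limma adjusted p = 0.163). Sox8, a SoxE relative of Sox9 that can share its targets, was measured by 1 probe set under the filter, with 28.2 to 53.5 in Slc39a13-KO cells and 45.8, 48.8 and 52.6 in wild type (log2 difference −0.26, SE 0.46 in the fit without the filter). Its arrays overlapped at signals near the filter level.

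The other 5 probe sets under the filter were 2 of Sox4, 1458332_x_at and 1443778_at, 2 of Sox5, 1432190_at and 1459261_at, and the dimmer 1 of Sox12. Their genotypes overlapped. Signals of the Sox4 pair ranged from 3.49 to 52.2 in Slc39a13-KO cells and from 6.30 to 66.0 in wild type, and those of the Sox5 pair from 9.87 to 61.5 in Slc39a13-KO cells and from 4.06 to 74.5 in wild type. In the fit without the filter, where 1.95% of probe sets were higher and 1.89% lower, 0 of the 8 passed the test (limma adjusted p = 0.163 to 0.925), and only the Sox9 probe set had arrays that did not overlap.

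**Figure D2:**
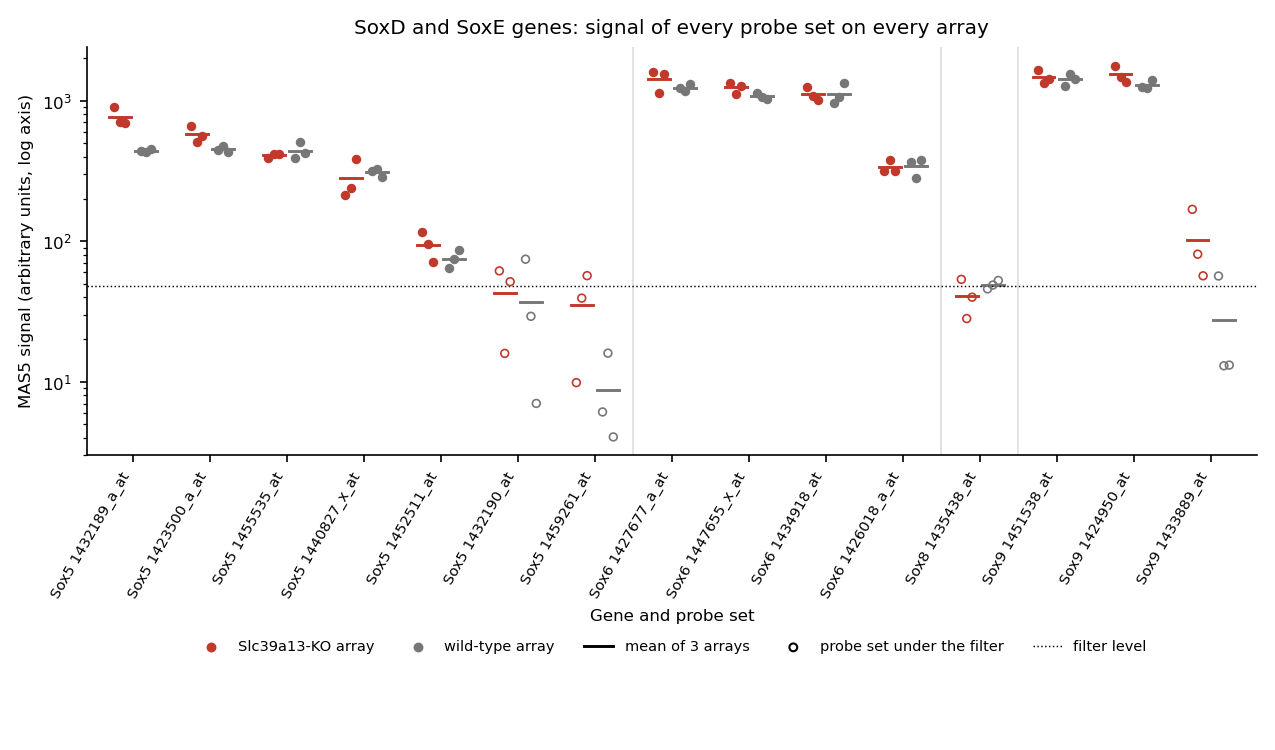
MAS5 signal (arbitrary units, log axis) of each of the 15 probe sets of Sox5, Sox6, Sox8 and Sox9 on each array, drawn with Slc39a13-KO to the left of wild type, bars for means of 3 arrays and open circles for probe sets under the filter. Sox5 1432189_a_at lies higher on all 3 Slc39a13-KO arrays, while every Sox6 probe set and both tested Sox9 probe sets overlap between the genotypes.

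Set side by side, the SoxC probe sets had a median log2 difference of −0.21 over 13 tested, 4 positive and 9 negative, of which 2 were higher, 2 lower and 9 did not pass the test. The SoxD median was 0.19 over 9 tested, 6 positive and 3 negative, with 1 higher, 0 lower and 8 that did not pass. It was 0.02 without the probe sets that may bind several transcripts, a setting that leaves out Sox5 1432189_a_at. That setting kept only Sox5 1455535_at and 1452511_at and Sox6 1434918_at. The SoxD median was 0.49 with the brightest probe set of each of the 2 SoxD genes. The SoxE median was 0.14 over 2 tested, with none past the test. Over all tested probe sets the median was 0.01. The SoxC median joined genes that differed, with gene medians of −0.36 for Sox4, 0.21 for Sox11 and 0.00 for Sox12, and it was 0.00 when the probe sets of each gene were averaged first. The SoxD genes had medians of 0.28 for Sox5 and 0.10 for Sox6. Differences between the 3 groups were not tested, since their probe sets share genes and arrays.

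**Figure D3:**
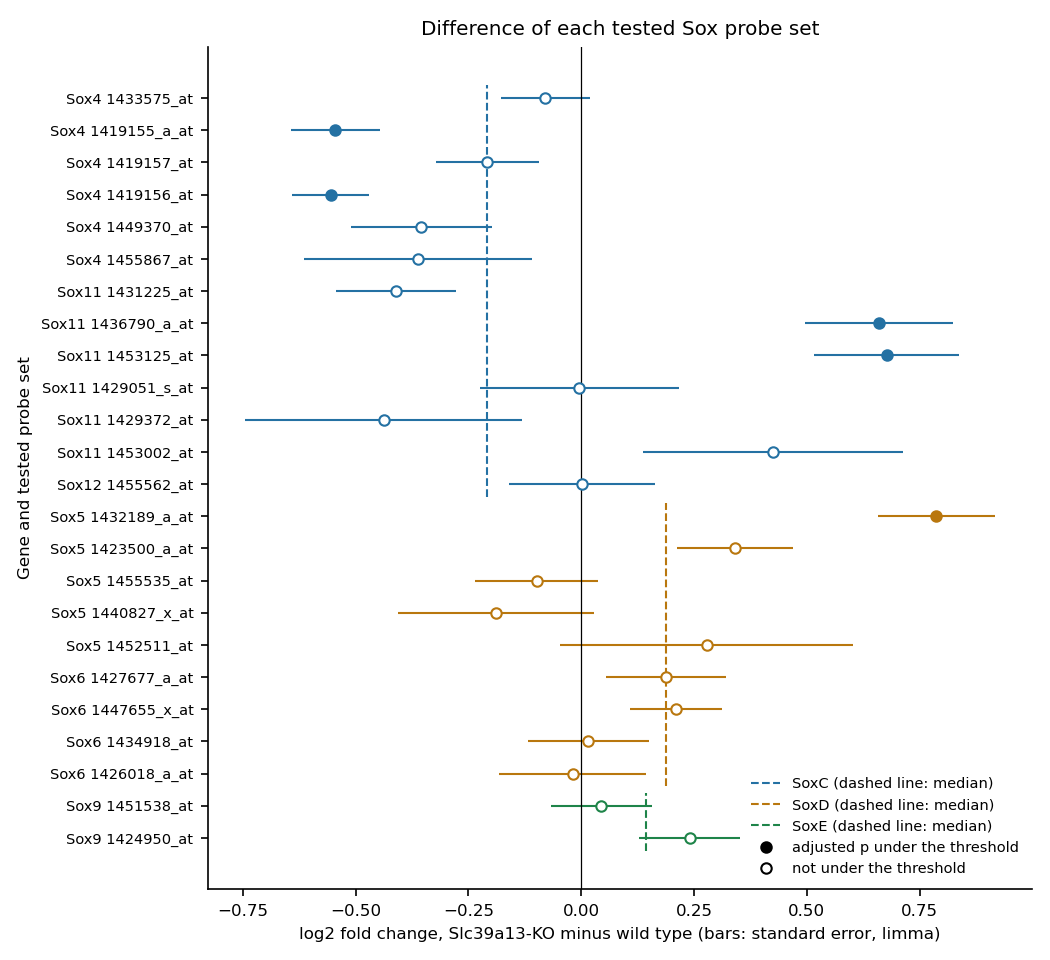
Log2 difference of each of the 24 tested Sox probe sets, Slc39a13-KO minus wild type, with bars for 1 SE and a line at the median of each Sox group (−0.21, 0.19 and 0.14). Filled points passed the test (2 of Sox4 lower, 2 of Sox11 and 1 of Sox5 higher), and all others lie between −0.5 and 0.5.

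Probe sets of 1 gene did not all give the same difference between genotypes. Over the tested probe sets of a gene, the log2 difference ran from −0.56 to −0.08 for Sox4, from −0.44 to 0.68 for Sox11 and from −0.19 to 0.79 for Sox5. For Sox6 it ran from −0.02 to 0.21 and for Sox9 from 0.04 to 0.24. At its ends the Sox11 range held 1429372_at and 1453125_at, which were designed on 1 record. The differences between probe sets of a gene were not tested, and which transcript forms they read was not determined, because their positions were not analysed here.

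The genes whose log2 values over the 6 arrays followed the brightest probe set of 1 gene per group most closely were listed among 12725 genes, as a description. For Sox9 1451538_at these were Cpt1c (r = 0.99), Ctdsp1 (0.98) and AU040972 (0.98), and 20 genes had r over 0.95. For Sox4 1433575_at they were Slc35c2 (0.99), Tmem216 (0.99) and Myo1e (0.98), with 18 genes over 0.95. For Sox5 1432189_a_at 305 genes had r over 0.95, led by Phf10 (0.999), the phospholipid transfer protein gene Pltp (0.998) and the lipid droplet gene Plin2 (0.998). The Sox5 probe set separated the genotypes, so its coefficients share the genotype difference. The Sox9 and Sox4 probe sets did not separate them, and all coefficients rest on the same 6 arrays.

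Among the listed target genes of SoxE and SoxD factors in cartilage, more were called higher than lower in Slc39a13-KO chondrocytes. The list was chosen with earlier results of these data known, so its shares and median describe it and do not test for an excess. Read by the brightest probe set of each gene, 20 of 21 listed genes were tested, 7 were higher (Acan, Col11a2, Wwp2, Comp, Chst11, Col9a1 and Col11a1), 1 was lower (Col9a3) and 12 did not pass the test. Of all 12726 genes tested this way 505 were higher (3.97%) and 497 lower (3.91%). Of the 8 chondrocyte markers 7 are in this list, and the mesothelial markers fell on the same arrays, whose part in these values was not tested. The median log2 difference was 0.47 over the list and 0.01 over all genes. Acan, the large proteoglycan of cartilage, had signals of 11166, 8763 and 7466 in Slc39a13-KO cells, against 4321, 5426 and 4710 in wild type (log2 difference 0.91, SE 0.14, limma adjusted p = 0.00666). Col11a2, a chain of the thin collagen fibrils, had 4147, 3066 and 3784 in Slc39a13-KO cells against 1697, 2056 and 2081 in wild type (0.91, SE 0.12, limma adjusted p = 0.00402). Both had genotypes that did not overlap.

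Comp, a matrix protein that binds collagen, rose by 0.76 (SE 0.12, limma adjusted p = 0.00629), and Wwp2, a ubiquitin ligase that binds Sox9, by 0.84 (SE 0.14, limma adjusted p = 0.00979). Col2a1, the main cartilage collagen and the best-known Sox9 target, had 62818, 42449 and 40475 in Slc39a13-KO cells against 29852, 34583 and 37220 in wild type. Its arrays did not overlap, but the difference of 0.50 did not pass the test (limma adjusted p = 0.0981). Col9a3 had 4715, 3661 and 4389 in Slc39a13-KO cells against 6303, 6040 and 5683 in wild type. It fell by 0.50 (limma adjusted p = 0.0184) by this probe set, the only 1 of its 3 tested that passed. Chst11 was called higher by 1 of 2 tested probe sets and Wwp2 by 4 of 5. Col27a1, by 1 of 2, and Papss2, by 1 of 3, had another probe set called higher, while their brightest did not pass. Slc39a13-KO replicate 1 was the highest of the 3 Slc39a13-KO arrays for 20 of the 20 genes, compared with 42.7% of all genes and 14 of the 24 Sox probe sets. Without that array 7 of the list were higher and 3 lower. Of the list, 4, 3 and 4 were higher without wild-type replicate 1, 2 or 3, and limma without a trend called 0. Over all probe sets the main fit called 802 higher. Leaving out wild-type replicate 1, 2 or 3 gave 280, 250 and 320, and limma without a trend 47.

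**Figure D4:**
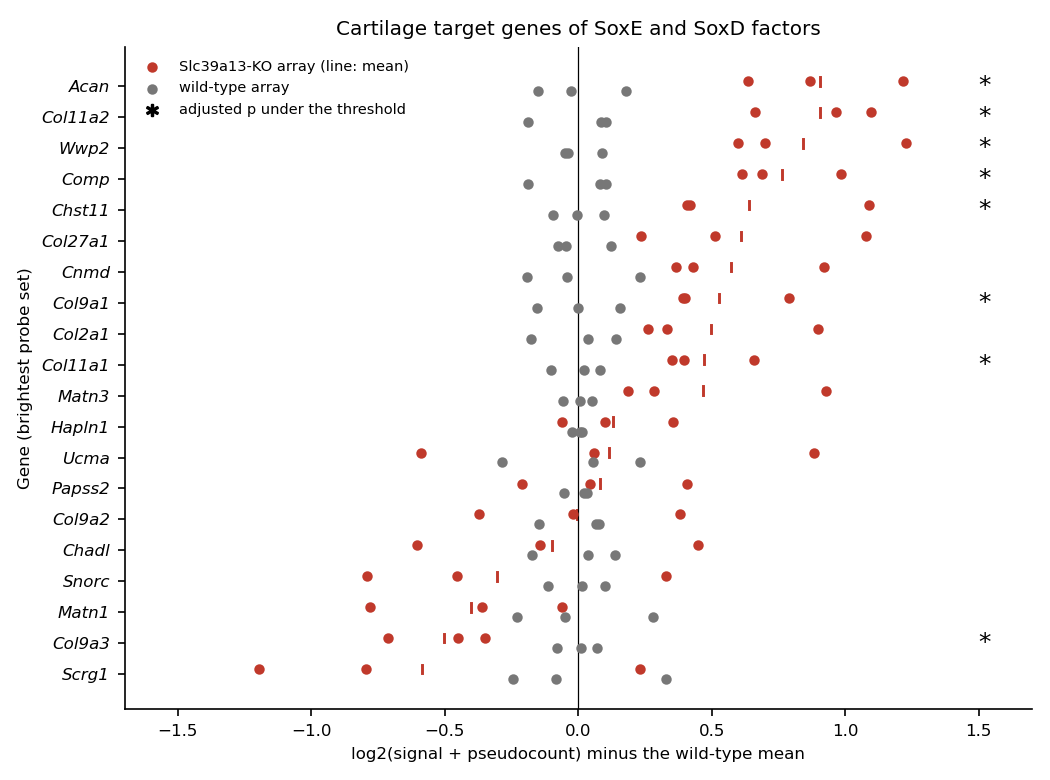
Log2(signal + 7.96) of the brightest probe set of each of the 20 tested target genes on each array, minus the mean of the wild-type arrays, with Slc39a13-KO points above those of wild type in each row, a tick at the Slc39a13-KO mean and an asterisk where the adjusted p was under 0.05. Acan, Col11a2, Wwp2 and Comp lie higher on all 3 Slc39a13-KO arrays, Col9a3 lies lower, and Slc39a13-KO replicate 1 is the highest Slc39a13-KO array throughout.

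Of 9 cofactors of Sox9, such as the acetyltransferase genes Ep300 and Crebbp, only Wwp2 passed the test by its brightest probe set, with a median difference of 0.05 over the list. Arid5b, a relative of Arid5a, had 1 of 5 tested probe sets called lower, while its brightest did not pass. Arid5a, an ARID protein that works with Sox9 on chondrocyte genes, had signals of 190, 210 and 203 in Slc39a13-KO cells against 317, 297 and 283 in wild type. Its arrays did not overlap, and the difference of −0.56 did not pass the test (limma adjusted p = 0.0640). None of 3 SoxC target genes passed: Gdf5, a joint growth factor gene, had 31.5, 80.3 and 52.0 in Slc39a13-KO cells and 179, 100 and 69.6 in wild type (−0.97, limma adjusted p = 0.234), and Tead2, a DNA-binding partner in Hippo signalling, differed by −0.08. Of 12 other Sox genes on the array 5 were tested and none passed. Sox15 came nearest, with 167, 68.9 and 87.4 in Slc39a13-KO cells against 67.2, 29.1 and 47.1 in wild type, which were apart (1.02, SE 0.44, limma adjusted p = 0.209). Sox10, the third SoxE gene, differed by 0.40 (limma adjusted p = 0.722), and Sox13, the third SoxD gene, by 0.25 (limma adjusted p = 0.774).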

How the data were processed

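Primary rib chondrocytes of Slc39a13-KO and wild-type mice were measured on 6 Affymetrix Mouse Genome 430 2.0 arrays, with groups taken from the labels. The deposited intensities were made by the authors with MAS5 (version not given in the sources used here), while the methods name gcRMA; the values are linear and each array has a trimmed mean of 500. Scaling to a common mean assumes that total RNA signal did not differ. MAS5 signals are noisy when dim, and only 3 arrays per group limit the precision.

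Of 45101 probe sets, 34958 have 1 gene symbol in the array annotation, 932 several and 9211 none, and 64 are controls. The 34945 with 1 symbol that are not controls were taken as log2(signal + 7.96), the pseudocount being the 10th percentile of all signals. A filter at the 40th percentile of mean level kept 23309, which were fitted with limma 3.58.1 in R 4.3.3 (lmFit, eBayes with trend), Slc39a13-KO minus wild type, with Benjamini-Hochberg adjustment over all of them. The script was tested on simulated data. The members and gene lists were chosen with earlier results of these data known. Named were every Sox probe set, Slc39a13, up to 4 called genes of each list by size of change, or up to 2 by lowest p where none passed, and the 3 genes most correlated with the brightest Sox9, Sox5 and Sox4 probe sets. Col2a1, Col9a3, Chst11, Col11a1 and Arid5a were named after their values were seen. Cnmd, Hapln1, Matn1, Arid5b and Sox13 were named outside this rule as well. Alternatives concerned the filter, pseudocount, scaling, summary by gene, probe sets that may bind several transcripts, a replicate block, the trend, the methods' t-test, a 2-fold criterion and leaving out each array.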

Additional observations from a re-analysis of the deposited data

How the results depend on the processing

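No alternative reversed a called Sox probe set. The counts stayed at 3 higher and 2 lower with quantile normalization, where 25 Sox probe sets were tested (784 and 797 over all probe sets). They also stayed with a filter at the 60th percentile (910 and 897) or a pseudocount at the 1st (787 and 769) or 25th percentile (826 and 811). The 3 higher and 2 lower of 24 tested Sox probe sets (802 and 784 among all probe sets) became 1 higher with no filter, 0 and 0 with median centring (131 and 260), 1 and 0 of 6 tested with the brightest probe set of each gene (590 and 592), 0 and 0 of 6 with the mean of each gene's probe sets (462 and 418), 1 and 1 of 15 without probe sets that may bind several transcripts (581 and 521), 0 and 0 in limma without trend (47 and 61), 0 and 1 by the methods' t-test with Benjamini-Hochberg adjustment (45 and 39), and 0 and 0 at 2-fold (357 and 451). Leaving out 1 array gave 1 to 2 higher and 1 to 2 lower Sox probe sets, and 250 to 1074 higher and 189 to 1210 lower over all probe sets. With the replicate block 1 Sox probe set was higher and 2 were lower (415 and 422 over all). Same-numbered arrays did not deviate together (correlations of 0.033, 0.014 and −0.054). The labels do not say whether equal numbers mark a pairing, and correlations over so few arrays cannot exclude one. The SoxC median difference moved to 0.0019 with gene means and the SoxD median to 0.49 with the brightest probe set, and to 0.02 without probe sets that may bind several transcripts. These settings test fewer Sox probe sets, so the counts are not shares of the same 24. Without 1 array the medians ranged from −0.32 to −0.10 for SoxC, 0.09 to 0.26 for SoxD and 0.04 to 0.20 for SoxE. The cause of these shifts was not tested. Of the 8 Sox probe sets under the filter level of 47.8, 0 passed the test with no filter (limma, 0.163 as the lowest adjusted p).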
